A study of Mus musculus with 16 samples.

Results

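Liver endothelial libraries labelled Erg and Fli1 double knockout were compared with liver endothelial libraries labelled wild type, with 3 libraries on each side. These 6 libraries, chosen by their labels alone, are part of a set of 16, of which 6 come from lung and 4 from heart. The study, titled as a test of whether ETS transcription factors hold adult endothelial cells to their fate, gave mice tamoxifen to delete both genes and took cells at day 10. The treatment is described for every sample, so the controls are taken here as tamoxifen-treated animals with the label wild type. Cells were marked in the living animal by an injected VE-cadherin antibody, and live CD31-positive, CD45-negative cells were sorted for poly(A) RNA sequencing. The promoter that drives the recombinase, the exons it removes, the strain and the age of the animals are stated by none of the sources at hand. Nothing in the labels says that the libraries of a group come from separate animals or that animals were not pooled. The p-values therefore measure only the spread between libraries, which may in part be technical. That spread is estimated for each gene over the liver, lung and heart groups together, all 16 libraries, and not over liver alone. Library 2 of each liver group had under 1 count of the female transcript Xist per 1e6 counts and 6737 or 8954 counts of 4 Y-linked genes, as male cells do, and the other 4 libraries had 435 to 755 Xist counts per 1e6 and 4 to 8 Y-linked counts. Each liver group thus held cells of at least 2 animals, both groups had the same mix of sexes, and the spread within a group includes a difference of sex.

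Sinusoidal endothelial cells line the liver's capillaries, have open pores and little basement membrane, and clear waste from blood through scavenger receptors and lysosomes. They differ along the sinusoid from the portal to the central vein, and they release Wnt and BMP proteins that set the metabolism of neighbouring hepatocytes. ERG and FLI1 are ETS family factors that bind DNA at a GGAA core and are active in endothelial cells of most organs.

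The label was checked first on genes that mark this cell type. Stab2, a hyaluronan scavenger receptor, stood at 4921, 4833 and 4470 CPM (counts scaled to 1e6 of the effective library size) in the liver controls, against a mean of 0.387 CPM in lung and 0.28 CPM in heart controls. Oit3, a secreted protein of sinusoidal cells, had 2951, 2685 and 2965 CPM, and under 1 CPM in the control means of lung (0.247) and heart (0.281). In the knockout-labelled liver libraries Stab2 stood at 5048, 4911 and 3664 CPM and Oit3 at 2362, 2102 and 1352 CPM, and neither passed the test (adjusted p = 0.961 and 0.228). The general endothelial gene Cdh5, which encodes the VE-cadherin used for sorting, had 2196, 1798 and 1950 CPM in controls and 2230, 1757 and 1603 CPM in knockout-labelled libraries (adjusted p = 0.786). Every liver library thus held these transcripts at high level, though many other markers were lower. Of 24 sinusoidal markers 13 were lower in the knockout-labelled libraries at adjusted p under 0.05 and 0 higher by edgeR (54.2% lower). Of 20 pan-endothelial markers 9 were lower and 1 higher (45% and 5%). Over all genes 9.87% were lower and 9.54% higher.

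The liver libraries held 30226340 to 41449054 counts, of which 1.4% to 1.89% fell on mitochondrial genes. Over all genes the control libraries correlated with each other at 0.991 to 0.992 on the log2 scale. Knockout-labelled libraries 1 and 2 correlated at 0.99, and library 3 stood somewhat apart from them, at 0.981 and 0.976. Erg fell from 356 ± 17.5 to 144 ± 18.6 CPM (mean ± SD, n = 3 here and below), a log2 change of −1.30 (SE 0.132, adjusted p = 1.54e-05). Fli1 counts over the whole gene were not lower in the knockout-labelled libraries (144, 125 and 187 CPM against 123, 113 and 114, adjusted p = 0.1), so they do not show the loss that the label states. The deleted exons are not given, reads outside the deleted part count towards both genes, and whole-gene counts therefore do not check the excision.

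Of 19646 genes tested with edgeR's quasi-likelihood test, 3814 passed a Benjamini-Hochberg adjusted p of 0.05, which is 19.4% of all. They were split almost evenly, with 1875 higher (9.54%) and 1939 lower (9.87%) in the knockout-labelled libraries, and the words rose and fell below refer to genes that passed. At least 2-fold changes were seen in 1107 genes that rose and 922 that fell, together 10.3% of genes tested. In 7267 genes, or 37.0%, every library of 1 group lay above every library of the other. The median gene hardly moved (log2 0.023). Genes that rose took 7.93% to 8.12% of summed CPM in the controls and 17.6% to 18.8% in the knockout-labelled libraries, while genes that fell dropped from 28.6% to 29% down to 13.7% to 15.8%. In bulk RNA, fewer cells of a type and less RNA per cell cannot be told apart, which holds for every value below.

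**Figure D1:**
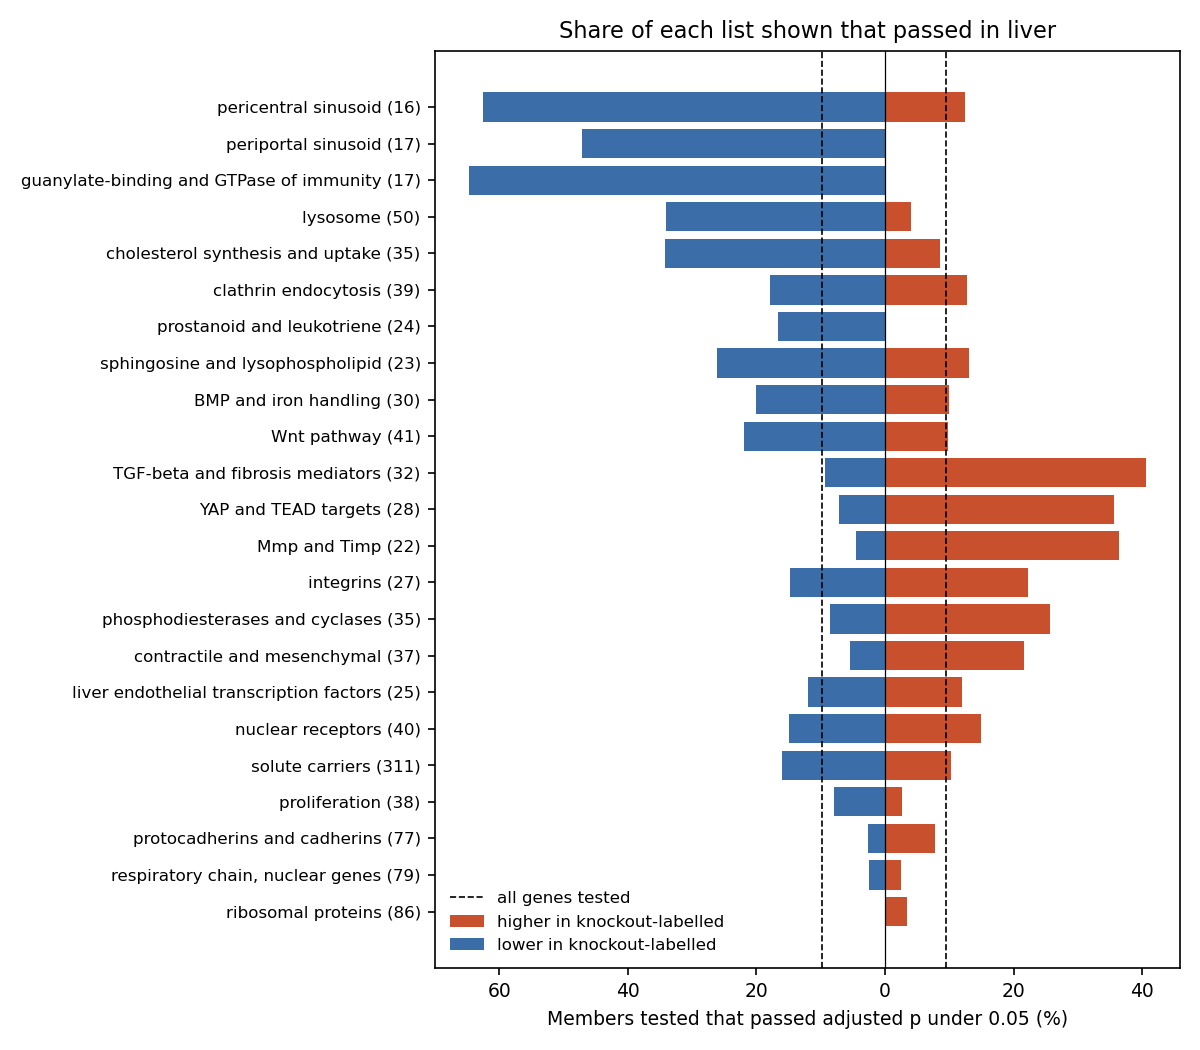
Share of selected gene lists that passed the test in liver, in percent of members tested, with genes higher in the knockout-labelled libraries to the right in red-brown and lower to the left in blue. Dashed lines mark the shares over all 19646 genes (9.54% higher, 9.87% lower), and the number of members tested stands in brackets. Among the lists drawn, the sinusoid zone lists and the immunity GTPases reach furthest to the left, and the TGF-beta, protease and YAP lists furthest to the right.

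Many genes that mark position along the sinusoid fell. Of 16 pericentral genes tested, 10 fell and 2 rose, and of 17 periportal genes 8 fell and 0 rose by edgeR, against 9.87% lower and 9.54% higher over all genes. The median log2 change was −1.26 for the pericentral and −0.74 for the periportal list. Without knockout-labelled library 2 the count of pericentral genes that fell was 6. Beside the periportal count of 0 genes higher stood 1 at an unadjusted p under 0.05 and 1 by DESeq2.

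Wnt2, a Wnt ligand that sinusoidal cells near the central vein release to hepatocytes, had 213, 290 and 286 CPM in controls and 83.1, 122 and 31.1 CPM in knockout-labelled libraries. Every knockout-labelled library lay below every control, and library 3 was the lowest (log2 −1.74, SE 0.352, adjusted p = 0.00315). Lfng, a glycosyltransferase that modifies Notch receptors, went from 150, 208 and 162 to 32.5, 12.9 and 11.9 CPM (log2 −3.18, SE 0.432, adjusted p = 0.000174). The Lfng groups were far apart, with knockout-labelled library 1 nearest to the controls, and without it the log2 change was −3.80. Slc26a10, a gene of the anion exchanger family, had 138, 281 and 159.6 CPM in controls against 21.7, 52.4 and 50.1 CPM (log2 −2.22, adjusted p = 0.00211). Wnt9b and Rspo3, which act on hepatocytes together with Wnt2 and were named here after their values were seen, fell from 132 ± 7.5 to 26.5 ± 7.02 CPM (adjusted p = 0.0172) and from 96.3 ± 22.8 to 36.2 ± 5.6 CPM (adjusted p = 0.013). All 3 of these paracrine signals were lower in every knockout-labelled library, but the call of Wnt9b ended without knockout-labelled 2 (adjusted p = 0.0559) and that of Rspo3 without control 1 (adjusted p = 0.0632).

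Fabp4, a fatty acid binding protein, moved the other way within the pericentral list. It stood at 306, 331 and 332 CPM in controls and 1842, 1410 and 1826 CPM in knockout-labelled libraries (log2 2.39, SE 0.623, adjusted p = 0.0152). The groups were well apart, but the call ended when any 1 control was left out, with adjusted p up to 0.0532.

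On the portal side, Ltbp4, which anchors latent TGF-beta in the matrix, was among the most abundant transcripts lost. It had 3431, 2930 and 3513 CPM in controls and 304, 129.8 and 189 CPM in knockout-labelled libraries. Every knockout-labelled library lay far under the lowest control (log2 −3.99, SE 0.298, adjusted p = 1.39e-06). Dkk3, a secreted glycoprotein of the Dickkopf family, fell from 43, 80.9 and 86.3 to 4.71, 2.32 and 5.71 CPM (log2 −4.05, SE 0.398, adjusted p = 1.24e-05). Control 1 was the lowest of its group for Dkk3 and still lay well above all 3 others. Efnb2, an arterial ephrin of the same list, had 182, 173 and 186 CPM and 167, 157 and 326 CPM, and Jag1, a Notch ligand, 30.3, 26.8 and 29.9 CPM and 9.73, 7.92 and 41.3 CPM, with overlapping groups in both cases (adjusted p = 0.58 and 0.448). In these arterial genes knockout-labelled library 3 was the highest of all 6 libraries.

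**Figure D2:**
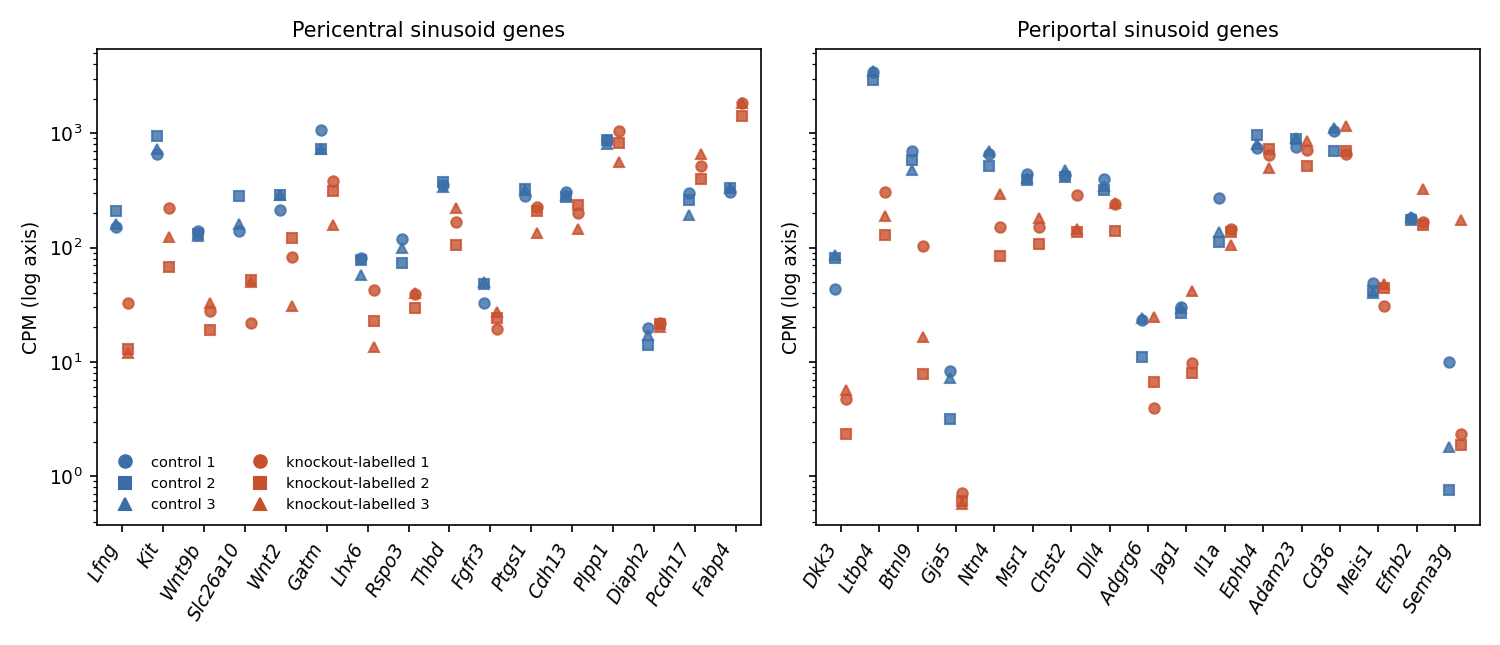
CPM on a log axis of each pericentral (left) and periportal (right) gene in the 6 liver libraries, controls in blue and knockout-labelled libraries in red-brown, with a marker shape for each library number. The genes are ordered by log2 change. Ltbp4 drops to 130 to 304 CPM, while Fabp4 is the gene furthest up on the pericentral side.

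Btnl9, a butyrophilin-like membrane protein, was another periportal gene with a deep loss, from 699, 584 and 481 CPM in controls to 103, 7.86 and 16.6 CPM (log2 −3.80, SE 0.772, adjusted p = 0.00329). Knockout-labelled library 1 kept the most, and without it the log2 change was −5.59. Because ETS factors bind a GGAA core, the 250 bases before the RefSeq start (GRCm38.p6) were searched for the words CCGGAAG and CAGGAAG on both strands. The promoters of 3 genes with such a word and of Chpf, which rose from under 1 CPM, are shown to set genes that fell beside genes that rose, 5′ to 3′ on the gene's strand, with the matched word in capitals. The Btnl9 window lies at chr11:49187090-49187339 (minus strand), that of Stab1 at chr14:31168642-31168891 (minus), that of Mfge8 at chr7:79149061-79149310 (minus) and that of Chpf at chr1:75479472-75479721 (minus).
Btnl9: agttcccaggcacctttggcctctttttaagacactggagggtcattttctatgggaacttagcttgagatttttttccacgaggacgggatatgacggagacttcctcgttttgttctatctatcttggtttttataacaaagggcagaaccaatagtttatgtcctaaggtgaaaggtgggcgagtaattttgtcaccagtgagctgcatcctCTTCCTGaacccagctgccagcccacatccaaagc
Stab1: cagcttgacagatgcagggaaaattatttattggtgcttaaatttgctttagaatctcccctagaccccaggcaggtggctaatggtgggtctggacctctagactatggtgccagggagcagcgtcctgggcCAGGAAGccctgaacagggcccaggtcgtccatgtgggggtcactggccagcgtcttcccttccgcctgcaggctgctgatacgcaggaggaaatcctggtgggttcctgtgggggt
Mfge8: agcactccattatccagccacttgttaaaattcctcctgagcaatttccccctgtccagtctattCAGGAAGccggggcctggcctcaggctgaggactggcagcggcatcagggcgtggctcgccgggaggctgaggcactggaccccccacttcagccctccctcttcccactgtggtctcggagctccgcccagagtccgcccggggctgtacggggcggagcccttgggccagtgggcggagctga
Chpf: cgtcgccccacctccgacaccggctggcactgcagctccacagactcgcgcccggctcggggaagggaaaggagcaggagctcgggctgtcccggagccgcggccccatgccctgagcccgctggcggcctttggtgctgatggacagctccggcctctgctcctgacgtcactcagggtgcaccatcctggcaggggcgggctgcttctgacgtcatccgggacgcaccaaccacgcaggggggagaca

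The word begins 35 bases before the start in Btnl9 (read there on the opposite strand), 117 bases in Stab1 and 185 bases in Mfge8, and Chpf has none. Stab1, a scavenger receptor, fell and Mfge8, a bridging protein for apoptotic cells, rose, so the word stood beside changes of either direction. Over the 10481 tested genes with exactly 1 RefSeq promoter, 21.7% held a word of either kind in this window. The share was 22.2% among 1083 genes that rose, 19.9% among 1108 that fell and 21.8% among 8290 that did not pass. Among genes changed at least 2-fold it was 18.1% of 581 that rose and 16.8% of 505 that fell. The word CCGGAAG was in 12.5% of all these promoters, 13.4% of those of genes that rose and 8.48% of those of genes that fell, and CAGGAAG in 10.4%, 10.3% and 12.1%. Of 57 named genes looked up, 39 had a RefSeq promoter and 5 of those a word. A match describes the letters only and says nothing of binding.

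The steepest rises were of genes at or under a few CPM in the control libraries. Chpf, a glycosyltransferase that polymerises chondroitin (chromosome 1, 75474569 to 75479307, minus strand, GRCm38), had 0.817, 0.715 and 0.851 CPM in controls and 133, 138 and 99.1 CPM in knockout-labelled libraries. The groups did not come near each other (log2 7.27, SE 0.289, adjusted p = 3.35e-09). Bmp1, the protease that trims procollagens, went from 2.69, 2.55 and 5.95 to 542, 518 and 406 CPM (log2 7.03, SE 0.314, adjusted p = 1.29e-08). Its knockout-labelled values lay close together. Lancl3, of the lanthionine synthetase-like family, rose from 0.501, 0.749 and 1 to 69.5, 81.7 and 79.6 CPM (log2 6.68, adjusted p = 5.66e-06). Cd24a, a heavily glycosylated surface protein, had 4.82, 5.11 and 3.49 CPM against 278, 125 and 220.5 CPM (log2 5.54, adjusted p = 5.38e-08). Chrm2, an acetylcholine receptor, rose from 0.787 ± 0.248 to 46 ± 14.4 CPM (adjusted p = 2.17e-07). In each of these genes the lowest knockout-labelled library stood many times above the highest control.

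A smaller set of rises began from a handful of counts, so their ratios are loosely fixed. Ppp1r14c, an inhibitor of protein phosphatase 1, had 5 counts over the 3 controls and 12.9, 15.1 and 13.6 CPM in knockout-labelled libraries (adjusted p = 5.26e-08). The giant cadherin Fat3 had 13 control counts and 63.6, 39.6 and 19.2 CPM, and the leucine-rich repeat gene Lrrn3 had 12 and 39.4, 35.7 and 10.9 CPM (adjusted p = 4.14e-05 and 8.12e-05). In Fat3 and Lrrn3 knockout-labelled library 3 was the lowest of its group. Fgf23, the phosphate-regulating hormone, had 11 control counts and 27.4, 1.16 and 38.6 CPM, with library 2 far under its group (adjusted p = 0.00161). Dnah11, an axonemal dynein, had 9 control counts and 17.1, 17.4 and 5.14 CPM (adjusted p = 0.000116). Dnah11 overlaps the end of Cdca7l by 725 bases on the opposite strand, and Cdca7l rose too (adjusted p = 5.26e-06), so reads of the shared bases cannot be told apart where strand was not recorded. Without control 2 the log2 changes grew from 8.22 to 10.34 for Fat3, from 8.01 to 8.79 for Ppp1r14c and from 7.10 to 11.88 for Dnah11, which stood at 6.46 without control 1. Without control 3 that of Lrrn3 grew from 7.85 to 8.82, and that of Fgf23 ran from 7.01 without knockout-labelled 3 to 8.39 without control 1 around its 7.66.

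Mest is a paternally expressed imprinted gene of the mesoderm, a hydrolase-like protein of the endoplasmic reticulum (chromosome 6, 30723547 to 30748465, plus strand). It had 71.5, 55 and 61.6 CPM in liver controls and 1878, 2016 and 1453 CPM in knockout-labelled libraries. The knockout-labelled values lay within a narrow range far above all 3 controls (log2 4.83, SE 0.184, adjusted p = 2.9e-09). In lung the means were 16 and 13.1 CPM (adjusted p = 0.305) and in heart 45.9 and 32.4 CPM (adjusted p = 0.0867). Peg10, another paternally expressed gene, derived from a retrotransposon and needed in placenta, rose from 8.78, 5.24 and 9.08 to 463, 361 and 203 CPM (log2 5.47, SE 0.352, adjusted p = 4.01e-07). Its knockout-labelled libraries spread more widely, with library 3 the lowest, and all lay far above the controls.

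Imprinted genes as a list, drawn up after these 2 values had been seen, counted 42 tested of 48 listed. Of them 9 rose and 3 fell (21.4% and 7.14%, against 9.54% and 9.87% over all genes), with a median log2 change of 0.357, which fell to 0.084 without knockout-labelled library 3. Copg2, a coatomer subunit gene that overlaps Mest by 912 bases on the opposite strand, rose from 38.6, 35.8 and 37.1 to 103, 111 and 77.8 CPM (adjusted p = 6.57e-06). Whether strand was used in counting is stated nowhere in these sources, so reads of the shared bases cannot be told apart, and their part in this rise was not tested. Grb10, an adaptor that dampens insulin and growth factor receptors, rose from 107, 124 and 103 to 263, 274 and 307 CPM (adjusted p = 9.66e-05). Beside Peg10 on chromosome 6, Sgce had 91.5 ± 11.1 and 124 ± 13.1 CPM (adjusted p = 0.0828), and Ppp1r9a, a synaptic scaffold named after its values were seen, rose from 41.5 ± 9.63 to 151 ± 59.4 CPM (adjusted p = 0.000959). H19 and Igf2, the best known imprinted pair, had overlapping groups, with the highest values of 31.3 and 16.5 CPM in knockout-labelled library 3 (adjusted p = 0.179 and 0.439).

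The transcripts that lost most in amount were taken by their fall in mean CPM, a ranking that favours abundant transcripts. Selenop, the plasma selenium carrier, had 18160, 20020 and 22900 CPM in controls and 7125, 8098 and 5861 CPM in knockout-labelled libraries. Each knockout-labelled library lay far under the lowest control (log2 −1.53, SE 0.297, adjusted p = 0.00239). Selenop is also a hepatocyte gene, and the summed level of 28 hepatocyte markers ran from 1141 to 3981 CPM in controls and from 1106 to 1539 CPM in knockout-labelled libraries. The part of those cells in the fall was not tested. Selenop overlaps Ccdc152 by 439 bases on the opposite strand, where Ccdc152 had 77.2 ± 25.3 and 33.1 ± 10.6 CPM (adjusted p = 0.0227, up to 0.0863 with 1 library left out). Plpp3, an ectoenzyme that inactivates lysophospholipids, fell from 3647, 3035 and 3180 to 828, 375 and 404 CPM (log2 −2.62, adjusted p = 2.08e-05). Stab1 fell from 6248, 5789 and 5388 to 3523, 2809 and 2203 CPM (log2 −1.03, adjusted p = 0.0105), and the lymphatic and sinusoidal VEGF receptor Flt4 from 3614, 3154 and 2950 to 2006, 1319 and 959 CPM (log2 −1.18, adjusted p = 0.0071). Both were lowest in knockout-labelled library 3. Aqp1, a water channel, fell from 8972 ± 230.3 to 5114 ± 309.6 CPM (adjusted p = 0.0305), and Ptprb, the endothelial phosphatase that restrains TIE2, from 5514 ± 198 to 2872 ± 765 CPM (adjusted p = 0.0246). The last 2 calls were not firm, since that of Aqp1 ended without any 1 control or knockout-labelled 1 or 3 (adjusted p up to 0.0829) and that of Ptprb without any 1 control or knockout-labelled 3 (up to 0.0838).

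Cd300lg, a glycoprotein receptor of capillary endothelium, was lost more deeply, from 1346, 1339 and 1508 to 164, 74.7 and 60.7 CPM (log2 −3.81, SE 0.43, adjusted p = 3.87e-05). Pik3r6, a regulatory subunit of PI3-kinase gamma, fell from 64.7, 67.8 and 67.2 to 10.4, 2.81 and 4.02 CPM (log2 −3.54, adjusted p = 1.46e-05, −4.28 without knockout-labelled 1). Lower too were Pgm5, a phosphoglucomutase-like protein of adherens junctions, from 85.6 ± 18.7 to 6.05 ± 3.91 CPM, and Bcan, the proteoglycan brevican, from 10.1 ± 4.4 to 0.433 ± 0.133 CPM (adjusted p = 3.97e-05 and 7.74e-06). The neurotrophin Ntf3 went from 15.7 ± 3 to 1.06 ± 0.794 CPM and the neurofilament gene Nefh from 14.2 ± 3.54 to 0.821 ± 0.829 CPM (adjusted p = 3.34e-05 and 0.00119). Without knockout-labelled library 1, which kept the most of both, the log2 changes were −4.67 and −5.34 in place of −3.89 and −4.11. Olfr1396, an olfactory receptor gene on chromosome 11 (49109982 to 49114874, minus strand), near Btnl9 (49165585 to 49187159), fell from 30.5 ± 9.39 to 2.19 ± 1.12 CPM (adjusted p = 0.00015). Cyp2a5, a hepatocyte P450, fell from 3.69, 15.2 and 49.5 to 1.16, 1.51 and 2.78 CPM, but control 3, which also had the highest hepatocyte marker sum, was by far the highest, and the call ended without it (adjusted p = 0.0663).

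Among the transcripts that gained most in amount, Mfge8 rose from 230.5, 259.9 and 272 to 1437, 1492 and 2812 CPM (log2 2.91, SE 0.265, adjusted p = 6.68e-06), with knockout-labelled library 3 the highest. Plau, the urokinase plasminogen activator, rose from 213, 175 and 173 to 2016, 2428 and 1094 CPM (log2 3.30, adjusted p = 1.67e-05), and there library 3 was the lowest of its group. F2r, the thrombin receptor PAR1, rose from 1104, 896 and 975 to 2309, 2724 and 2431 CPM (log2 1.33, adjusted p = 0.000502). Clca3a1, a secreted chloride channel regulator, rose from 52.3, 80.5 and 89.3 to 1299, 1593 and 1396 CPM (log2 4.27, adjusted p = 5.68e-06). Prelp, a proteoglycan that binds basement membrane, went from 175, 135 and 184 to 1152, 1777 and 425 CPM, with library 3 well under the other two and still above every control (adjusted p = 0.00024). Trp53i11 rose from 357 ± 97.5 to 1212 ± 33 CPM (adjusted p = 0.00111). Col4a1 and Col4a2, the basement membrane collagens that share a promoter region, had 5650, 4305 and 2285 and 3180, 2404 and 1382 CPM in knockout-labelled libraries against 1899 ± 287 and 1093 ± 110.1 CPM in controls (adjusted p = 0.0117 and 0.00797). The Col4a1 call ended without knockout-labelled library 1 (adjusted p = 0.0531) and with liver libraries fitted alone (adjusted p = 0.0556).

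Ligands that carry iron signals from the sinusoid to hepatocytes fell. Bmp6, which with Bmp2 tells hepatocytes to make hepcidin, fell from 342, 408 and 423 to 99.7, 81.2 and 131 CPM (log2 −1.91, SE 0.21, adjusted p = 3.12e-05). Bmp2, named after its values were seen, fell from 2011, 1887 and 2101 to 1130, 1084 and 1022 CPM (log2 −0.89, adjusted p = 0.00372). The groups of both genes were separate with little spread. Bmp4 fell from 26.2, 12.6 and 26.5 to 2.35, 2.06 and 3.77 CPM (log2 −3.00, adjusted p = 4.59e-05). Slc40a1, the iron exporter ferroportin, fell from 289.5, 404 and 539.9 to 91.6, 88 and 25.6 CPM (log2 −2.59, adjusted p = 0.00112). Kupffer cells make ferroportin too. Summed over 18 Kupffer and macrophage markers, controls had 1251 to 2133 CPM and knockout-labelled libraries 607 to 1170 CPM. Slc40a1 is itself 1 of the 18 and the only 1 called, so this sum includes the fall it stands beside. The defining Kupffer genes Clec4f (95.8 ± 71 and 54.1 ± 35.7 CPM) and Vsig4 (36.9 ± 24.1 and 18.1 ± 7.41 CPM) overlapped between groups, and their part in the Slc40a1 fall was not tested. Atoh8, a transcription factor that responds to BMP, rose from 8.54, 12 and 10.8 to 35.9, 45.4 and 32 CPM (log2 1.86, adjusted p = 0.00148), while the BMP response genes Id1 (93.8 ± 10.4 and 107 ± 18 CPM), Smad6 and Smad7 had overlapping groups (adjusted p = 0.74, 1 and 0.27). Over the whole list of 30 BMP and iron genes 3 rose and 6 fell, with a median log2 change of −0.16. These shares were 10% and 20%, against 9.54% and 9.87% over all genes.

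Of 32 angiocrine genes of liver regeneration, 8 rose and 8 fell, 25% in each direction against 9.54% and 9.87% over all genes. Hgf, the hepatocyte growth factor, rose from 130.1, 93 and 96.8 to 731, 553 and 782 CPM (log2 2.69, SE 0.366, adjusted p = 0.000177). Stc1, a secreted glycoprotein, rose from 1.92, 1.33 and 1.22 to 30.9, 8.24 and 65.5 CPM (log2 4.54, adjusted p = 9.88e-05), and Igfbp5, which binds insulin-like growth factors, from 14.7, 7.49 and 11.2 to 234, 111 and 1282 CPM (log2 5.61, adjusted p = 0.000206). For both, knockout-labelled library 3 was the highest by far, and without it the log2 changes were 3.70 and 3.95. Gdf10, a BMP-like ligand, rose from 0.87, 0.681 and 0.759 to 15.1, 29.1 and 68.4 CPM (adjusted p = 3.72e-05), with a log2 change of 4.83 in place of 5.60 without library 3. The count of angiocrine genes that rose was 5 when control 1, 2 or 3 or knockout-labelled 3 was left out.

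In the list of 32 genes of TGF-beta signalling and fibrosis, 13 rose and 3 fell, against 9.54% and 9.87% over all genes, and the median log2 change was 1.031. The count of those that rose stayed within 1.5 times of 13 whichever library was left out, while the median was 0.406 without knockout-labelled library 3. Ccn2, a matricellular protein induced by TGF-beta and by YAP, rose from 76.6, 61 and 142 to 623, 578 and 881 CPM (log2 2.90, SE 0.416, adjusted p = 0.000274). Thbs1, which activates latent TGF-beta, rose from 8.09, 3.13 and 3.19 to 119, 65 and 449.6 CPM (log2 5.45, adjusted p = 0.00017), with library 3 the highest, and its log2 change was 4.24 without library 3 and 6.08 without control 1. Of the platelet-derived growth factors, mitogens of stellate cells, Pdgfa rose from 4.24, 3.4 and 3.55 to 30.6, 20.5 and 13.4 CPM and Pdgfd fell from 76.2, 75.6 and 81.4 to 31.9, 33.4 and 28.3 CPM (adjusted p = 5.81e-05 and 4.25e-05). Smad3, which carries the signal to the nucleus and was named after its values were seen, rose from 47.2 ± 5.32 to 166 ± 19.1 CPM (adjusted p = 0.000202). Tgfbr1, a receptor gene also named later, fell from 47.7 ± 0.801 to 32.1 ± 3.31 CPM (adjusted p = 0.00137). The ligand gene Tgfb1 had 488 ± 126 and 332 ± 55.6 CPM (adjusted p = 0.0523).

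Of 28 YAP and TEAD genes, 10 rose and 2 fell (35.7% and 7.14%, against 9.54% and 9.87% over all genes), with a median of 1.19 that dropped to 0.13 without knockout-labelled library 3. Nt5e, the ectoenzyme CD73 that makes adenosine, rose from 12.7, 5.62 and 9.78 to 208, 204 and 528 CPM (log2 5.06, SE 0.411, adjusted p = 3.05e-06). Its lowest knockout-labelled value stood far above the highest control, and without library 3 the log2 change was 4.45. Tead1, a DNA-binding partner of YAP, rose from 51.8, 44.6 and 43.3 to 159, 157 and 106 CPM, and the RNA-binding protein gene Rbms3 from 14.1, 6.64 and 13.8 to 73.4, 85.4 and 68.4 CPM (adjusted p = 0.000155 and 0.000161). Of 22 genes for matrix proteases and their inhibitors (Mmp and Timp), 8 rose and 1 fell (36.4% and 4.55%, against the same background). Mmp11, stromelysin 3, rose from 0.553, 0.817 and 0.729 to 9.25, 9.92 and 11.2 CPM, and Mmp17, a membrane-bound protease, from 2.48, 3.58 and 2.52 to 38.8, 19 and 36.8 CPM (adjusted p = 1.44e-07 and 5.68e-06). The inhibitors Timp1 (0.753 ± 0.17 to 5.09 ± 2.5 CPM) and Timp2 (39.7 ± 5.6 to 124 ± 60 CPM) rose too (adjusted p = 0.000223 and 0.000885). The median of the Mmp and Timp list was 0.692 and turned to −0.137 without knockout-labelled library 3.

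**Figure D3:**
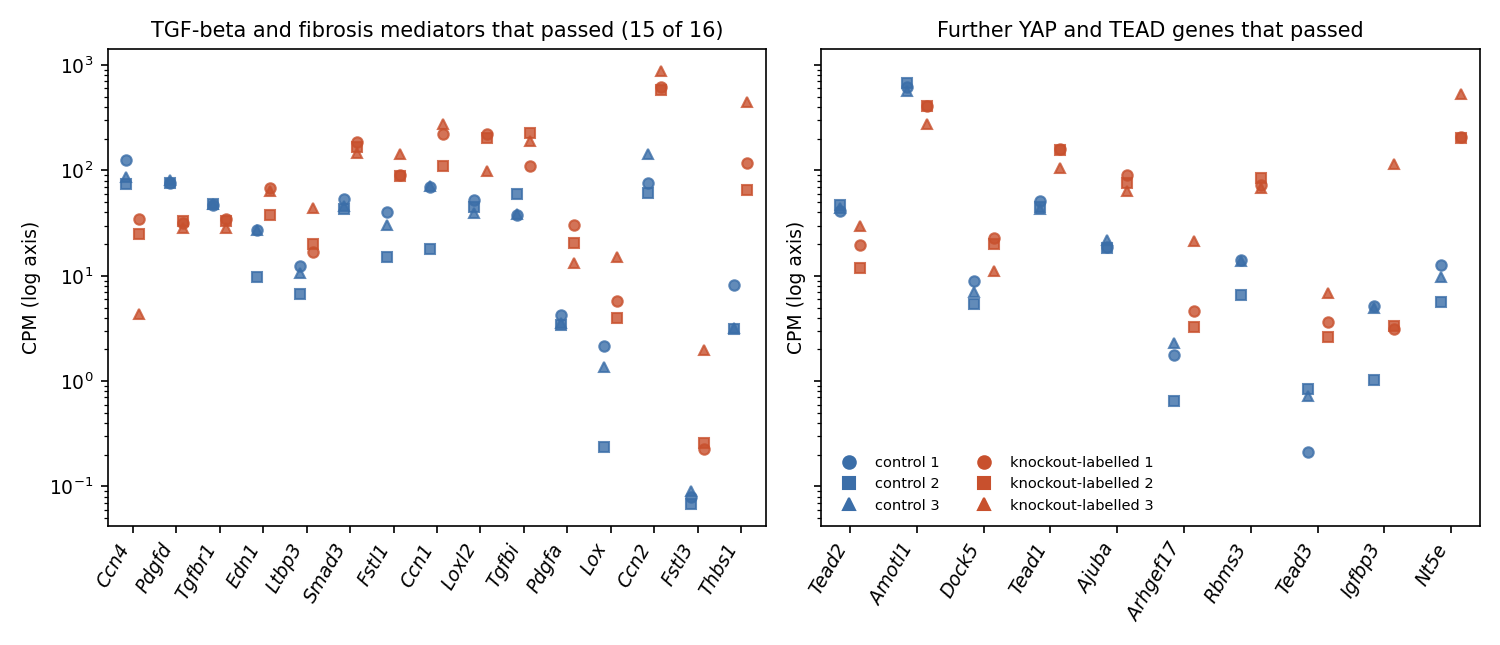
CPM on a log axis of 15 of the TGF-beta and fibrosis genes that passed (left) and the further YAP and TEAD genes that passed (right) in the 6 liver libraries, controls in blue and knockout-labelled libraries in red-brown. Genes run from the largest fall to the largest rise. Knockout-labelled library 3 (triangles) is the highest for Thbs1, Ccn2, Nt5e and Igfbp3 and the lowest of its group for Loxl2 and Pdgfa.

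Markers of other cells were read beside these lists. The 22 stellate and fibroblast markers summed to 281 to 339 CPM in controls and 862 to 1307 CPM in knockout-labelled libraries. Of the 22, 4 rose and 1 fell (18.2% and 4.55%, against 9.54% and 9.87% over all genes). Hgf alone made up most of that sum in each knockout-labelled library, and Ecm1, which rose from 136 ± 12.8 to 267 ± 66.7 CPM, most of the rest. Of members that did not pass, Col1a1 had 7.25, 7.15 and 9.54 CPM in controls and 1.42, 4.15 and 8.07 CPM in knockout-labelled libraries. In the same order Col3a1 had 12.9, 14.9 and 15.8 and 3.22, 7.57 and 13.4 CPM. Des had 1.84 ± 0.735 and 2.1 ± 1.73 CPM and Lrat 1.18 ± 0.132 and 0.337 ± 0.412 CPM. These defining genes stayed low in both groups (adjusted p = 0.35, 0.285, 0.833 and 0.151). Colec11 of the same list rose by log2 2.41 and kept its call under every alternative. Pdgfra rose from 0.949, 0.987 and 1.61 to 3.9, 3.07 and 14.8 CPM (adjusted p = 0.00217), and its log2 change was 1.56 in place of 2.61 without library 3. Acta2, smooth muscle actin, had 4.38, 0.783 and 1.43 CPM and 1.03, 3.02 and 21.6 CPM, again with library 3 the highest (adjusted p = 0.12). The part of such cells in library 3 was not tested.

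Of 50 lysosomal genes, which serve the clearance work of the sinusoidal cell, 17 fell and 2 rose (34% and 4%, against 9.87% and 9.54% over all genes), with a median log2 change of −0.37, and without control 3 the count that fell was 11. Man2b1, lysosomal alpha-mannosidase, fell from 674, 771 and 829 to 325, 255 and 252 CPM (log2 −1.45, SE 0.135, adjusted p = 8.18e-06). Ctsd, the protease cathepsin D, fell from 484, 607 and 592 to 234, 225 and 176 CPM (log2 −1.41, adjusted p = 0.000258). The groups of both were separate by a wide margin. Gaa, acid alpha-glucosidase, fell from 244 ± 12.9 to 123 ± 18 CPM (adjusted p = 0.000222). Cd63, a lysosomal tetraspanin named after its values were seen, rose against this trend from 6.69, 8.78 and 10.8 to 42.4, 40.5 and 175 CPM, most in library 3 (adjusted p = 0.000302, log2 change 3.29 and 2.24 without it). In clathrin endocytosis 7 of 39 genes fell and 5 rose (17.9% and 12.8%), which is nearer to those shares. Clta, a clathrin light chain, fell from 447, 505 and 463 to 282, 228 and 218 CPM (adjusted p = 0.000326). Snx9, which bends the membrane at clathrin pits, rose from 159.6, 145 and 152 to 322, 269.7 and 321 CPM, and Sh3bp4, a regulator of receptor uptake, from 6.91 ± 1.55 to 24.1 ± 8.46 CPM (adjusted p = 1.04e-05 and 6.32e-05). Ehd3, a membrane-remodelling ATPase of sinusoidal cells, had overlapping groups and did not pass (adjusted p = 0.481). Only 1 library, numbered 3 in its group, was low, at 1403 CPM, beside 4262 to 5314 CPM in the others.

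Cholesterol genes fell in 12 of 35 cases and rose in 3 (34.3% and 8.57%, against 9.87% and 9.54% over all genes), with a median of −0.425, and 7 fell without control 3. Sc5d and Dhcr7, enzymes of the last steps of cholesterol synthesis, fell from 21.5, 14.6 and 20.6 to 6.29, 5.54 and 5.65 CPM and from 22.4, 17.8 and 20.8 to 8.99, 7.97 and 7.21 CPM (adjusted p = 5.68e-06 and 0.000248). Stard4, a cholesterol carrier, fell from 172, 116 and 127 to 66.9, 40.7 and 31 CPM (adjusted p = 0.0013). In each of these 3 enzymes and carriers the groups did not overlap. Abcg2, an efflux pump named from the list of ABC transporters, rose from 40.7, 67.1 and 68.3 to 248, 204 and 256 CPM (log2 2.01, adjusted p = 5.19e-05). Among 45 genes of lipid storage and fatty acid handling 9 rose and 3 fell (20% and 6.67%). Fabp5 rose from 72.8, 80.1 and 80.6 to 398, 315 and 493 CPM, and Angptl4, an inhibitor of lipoprotein lipase, from 1.37, 1.36 and 2.22 to 45, 11.1 and 54.5 CPM (adjusted p = 8.71e-06 and 0.000843). The count of lipid genes that rose was 5 without control 2 or 3, and of those that fell 0 without control 3 or knockout-labelled 2.

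Receptors and second messengers for vasoactive lipids and peptides changed in both directions. Tbxa2r, the thromboxane receptor, fell from 134, 126 and 144 to 26.6, 12.6 and 6.83 CPM (log2 −3.13, SE 0.366, adjusted p = 5.13e-05, −3.79 without knockout-labelled 1). Slco2a1, the prostaglandin importer, fell from 843, 900.1 and 845 to 416, 387 and 194 CPM (adjusted p = 0.00298). Of 24 prostanoid and leukotriene genes, 4 fell (16.7%, against 9.87% over all genes), and the count was 2 without control 1, control 2 or knockout-labelled 3, since the calls of Tbxas1 (8.94 ± 1.55 to 3.92 ± 1.54 CPM) and Hpgd (292 ± 64.7 to 109.9 ± 70.2 CPM) ended in these settings, and that of Hpgd also without control 3 or knockout-labelled 1 (adjusted p up to 0.127). Among 23 genes for sphingosine 1-phosphate and lysophospholipids, 6 fell and 3 rose (26.1% and 13%, against 9.87% and 9.54% over all genes). S1pr4, a receptor, fell from 14.3, 14.8 and 16.7 to 4.71, 4.35 and 3.8 CPM, and Spns2, the exporter of sphingosine 1-phosphate, from 210.5, 209.6 and 221 to 101, 75.9 and 64.7 CPM (adjusted p = 1.83e-05 and 7.54e-05). Lpar1, a receptor for lysophosphatidic acid, rose from 1.29, 1.74 and 2.67 to 17, 24.3 and 8.43 CPM (adjusted p = 3.85e-05), and S1pr1, the main endothelial receptor for sphingosine 1-phosphate, from 195, 175 and 187 to 499, 467 and 444 CPM (adjusted p = 0.000316). S1pr1 was the only member of the 20 pan-endothelial markers that rose by edgeR with all libraries in. Of these markers 9 fell (45%, against 9.87% over all genes).

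Among 35 phosphodiesterases and cyclases 9 rose and 3 fell (25.7% and 8.57%, against 9.54% and 9.87% over all genes). Gucy1b1, a subunit of the nitric oxide receptor, rose from 8.33, 5.89 and 9.42 to 26.7, 52.4 and 71.8 CPM (log2 2.67, SE 0.284, adjusted p = 2.3e-05). Adcy4, an adenylate cyclase, fell from 231, 217 and 227 to 59.7, 38.9 and 55.9 CPM, while Adcy6 rose from 187, 198 and 186 to 297, 352 and 324 CPM (adjusted p = 2.24e-06 and 0.000174). Pde5a, which degrades cyclic GMP, fell from 21.2, 22.9 and 19.8 to 9.64, 10.4 and 8.14 CPM (adjusted p = 3.71e-05). These adenylate cyclases thus moved in opposite directions. Rgs2, which shuts off Gq signalling, rose from 24.1, 15.9 and 28.2 to 286, 349 and 303 CPM (log2 3.78, adjusted p = 4.35e-06), while neither lung nor heart passed (adjusted p = 0.283 and 0.11), and the liver change was larger than theirs by log2 4.34 and 2.91 (adjusted p of the differences 8.13e-05 and 0.00228). The G protein subunits Gnb4 and Gng11 fell from 102 ± 10.9 to 53.3 ± 15.2 CPM and from 227 ± 10.1 to 119.5 ± 29.6 CPM (adjusted p = 0.0013 and 0.00763).

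Of 27 integrins, the receptors for matrix and fibrinogen, 6 were called higher and 4 lower (22.2% and 14.8%, against 9.54% and 9.87% over all genes). Itga2, a collagen receptor chain, rose from 1.5, 0.885 and 1.09 to 35.6, 43.2 and 28.1 CPM (log2 4.92, SE 0.235, adjusted p = 2.63e-08). Itgb3 rose from 89.7, 88 and 116 to 1163, 877 and 1396 CPM, and Itga2b, its partner in the fibrinogen receptor of platelets, from 24.5, 33.3 and 25.5 to 138, 129 and 194 CPM (adjusted p = 0.000118 and 4.65e-06). Itga3, a laminin receptor chain, rose from 18.4, 16.1 and 17.2 to 107, 69.7 and 234 CPM (adjusted p = 8.91e-05), with a log2 change of 2.36 in place of 2.99 without library 3. Platelet markers were read beside them. The 12 platelet and megakaryocyte markers, Itga2b among them, summed to 235 to 326 CPM in controls and 628 to 695 CPM in knockout-labelled libraries. Of the 12, 4 rose (33.3%, against 9.54% over all genes). Clec1b, the podoplanin receptor that sinusoidal cells also express, rose from 198, 277 and 281 to 456, 448 and 429.6 CPM and made up most of that sum, and Pf4, platelet factor 4, rose from 3.9, 3.13 and 4.19 to 55.6, 41.3 and 55.6 CPM (adjusted p = 0.00293 and 5.15e-05). The platelet-defining gene Gp1ba had 4.59, 6.81 and 6.56 CPM in controls and 3.32, 4.23 and 3.8 CPM in knockout-labelled libraries, all lower, without passing (adjusted p = 0.107). Gp9 (0.664 ± 0.0738 and 1.34 ± 0.501 CPM) and Treml1 (0.235 ± 0.147 and 0.434 ± 0.286 CPM) were low in both groups and did not pass either (adjusted p = 0.138 and 0.379). Gp1bb of the same list rose by log2 1.87, a call that ended without control 1 (adjusted p = 0.0501). The part of platelets in the integrin changes was not tested.

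Of 25 transcription factors of liver endothelium 3 rose, 3 fell (12% each, near the 9.54% and 9.87% over all genes) and 19 did not pass. Hhex, a homeobox factor of early liver and endothelium, rose from 58.9, 66 and 74 to 293, 217 and 277 CPM (log2 1.99, SE 0.184, adjusted p = 8.11e-06). Lyl1 and Tal1, related basic helix-loop-helix factors of blood and vessel development, rose from 32.6, 28.6 and 24.7 to 113, 128 and 139.8 CPM and from 104, 94.7 and 85.2 to 134, 151 and 160 CPM (adjusted p = 7.52e-05 and 0.00127). Bcl6b, an endothelial zinc finger repressor, fell from 431, 225 and 129 to 75.2, 32.4 and 45.1 CPM (log2 −2.36, adjusted p = 0.00285). The factor Gata4, which sets sinusoidal against continuous identity, had 783, 644 and 597 CPM in controls and 437, 347 and 474 CPM, with the groups apart but no call (adjusted p = 0.311), and Meis2 had 259.5 ± 28 and 188 ± 12.3 CPM (adjusted p = 0.11). The number of factors that fell was 5 without knockout-labelled library 3. Among 40 nuclear receptors 6 rose and 6 fell (15% each, against the same shares over all genes). Rarb, a retinoic acid receptor, fell from 33.9, 47.6 and 38.1 to 14.4, 8.87 and 6.99 CPM, and Nr3c2, the mineralocorticoid receptor, from 21.3, 24.3 and 28.3 to 5.83, 8.82 and 10.5 CPM (adjusted p = 0.000489 and 0.00115), while Ppard, a fatty acid sensor, rose from 56.4 ± 4.17 to 94.6 ± 14.3 CPM (adjusted p = 0.000952).

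Of 17 guanylate-binding proteins and immunity GTPases, which restrict microbes inside cells and answer to interferon, 11 fell (64.7%, against 9.87% over all genes) and 0 rose by edgeR, with a median log2 change of −1.135. Beside that 0 stood 1 at an unadjusted p under 0.05 and 0 by DESeq2. Igtp fell from 45.9, 49.9 and 37.3 to 13.2, 22.1 and 17.8 CPM and Gbp7 from 110.4, 134 and 96.6 to 46.5, 61.7 and 46.9 CPM (adjusted p = 0.000404 and 0.00046). The knockout-labelled values were all below the lowest control for both. The immunoproteasome subunits Psmb8 and Psmb9, which cut peptides for class I presentation, fell from 55.9 ± 2.2 to 24.2 ± 1.12 CPM and from 89.8 ± 4.78 to 25.7 ± 5.58 CPM (adjusted p = 0.000428 and 0.000231). Of the 46 proteasome genes 6 rose and 3 fell (13% and 6.52%), near the 9.54% and 9.87% over all genes. The class I chains B2m and H2-D1 fell from 3702, 3214 and 3515 to 1372, 1400 and 941 CPM and from 3745, 3652 and 3983 to 1546, 1647 and 1576 CPM (adjusted p = 0.000596 and 7.77e-05), and H2-T24 more deeply, from 118, 161 and 124 to 11.9, 17 and 3.86 CPM (adjusted p = 0.00015). Close copies among the H2 and Gbp genes may share reads, which makes single members less certain. Of 46 interleukins and receptors 8 rose and 8 fell (17.4% each). Il1rl2, the IL-36 receptor, rose from 2.19, 2.21 and 2.52 to 53.1, 44 and 54.5 CPM with little spread (log2 4.45, SE 0.153, adjusted p = 1.98e-09). Il15ra, Il16 and Il27ra fell from 19.7 ± 1.5 to 6.53 ± 0.894, from 73.8 ± 3.99 to 27.6 ± 1.72 and from 79.3 ± 6.72 to 21.6 ± 8.88 CPM (adjusted p = 7.36e-06, 5.92e-05 and 0.000361).

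Genes of the surface coat and of transport moved in both directions. Of 40 glycocalyx and hyaluronan genes 8 rose and 7 fell (20% and 17.5%, against 9.54% and 9.87% over all genes). Gpc1, a heparan sulfate proteoglycan, fell from 52.8, 69.1 and 60.4 to 12.7, 6.87 and 5.39 CPM, while Gpc4 rose from 15.4, 14.6 and 16.4 to 50.1, 35.2 and 59.1 CPM (adjusted p = 0.000389 and 0.000222). Hyal2, a hyaluronidase, fell from 558, 574 and 511 to 175, 159 and 113 CPM, and Hs6st1, which sulfates heparan chains, rose from 96.6, 106 and 108 to 241, 205 and 239 CPM (adjusted p = 5.75e-05 and 3.6e-06). Solute carriers had 50 falls and 32 rises among 311 (16.1% and 10.3%), and the share that rose was near the 9.54% over all genes. Slc18a2, a vesicular monoamine transporter, rose from 15.4, 16.3 and 12.8 to 170.4, 246 and 128 CPM and Slc4a8, a bicarbonate exchanger, from 2.35, 4.66 and 3.62 to 69.2, 57.3 and 59.5 CPM (adjusted p = 5.68e-06 and 1.27e-07). Slc44a1, a choline transporter, fell from 224, 209.9 and 238 to 81.9, 63 and 79 CPM, and Slc37a3, of the sugar-phosphate exchanger family, from 40.4, 44.3 and 42.8 to 17.6, 15.5 and 18.1 CPM (adjusted p = 4.26e-06 and 1.53e-06). In all 4 carriers the groups stood clearly apart.

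Ribosomal, respiratory chain, cadherin and proliferation lists had few calls against the 19.4% of all genes that passed. Of 86 ribosomal protein genes 3 rose and 0 fell by edgeR (beside that 0 stood 0 at an unadjusted p under 0.05 and 0 by DESeq2), and of 79 nuclear genes of the respiratory chain 2 rose and 2 fell. Protocadherins and cadherins had 6 rises and 2 falls among 77, and proliferation genes 1 rise and 3 falls among 38. The median log2 change of the proliferation list was −0.174, and it was −0.464 without control 1 and 0.606 without control 2. Without knockout-labelled library 2 the count of ribosomal genes that rose was 14. Rps6, of the small ribosomal subunit, rose from 255, 282 and 278 to 461, 326 and 560.4 CPM (adjusted p = 0.0143), a call that ended without control 1 or knockout-labelled 3 (adjusted p up to 0.0629).

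Blood cell markers were low but not level between groups. Neutrophil markers summed to 4.3 to 7.23 CPM in controls and to 151, 36.4 and 20.8 CPM in knockout-labelled libraries 1 to 3. Of the 10 tested, 6 rose (60%, against 9.54% over all genes). S100a9, a calcium-binding protein of neutrophils, had 0.29, 0.613 and 0.425 CPM in controls and 54.3, 9.86 and 2.81 CPM in knockout-labelled libraries. It was highest in library 1 (adjusted p = 0.00269, log2 change 5.67 and 3.85 without library 1). Ltf and S100a8 rose too (log2 4.31 and 5.37, and 3.56 and 3.47 without library 1). The S100a8 call ended with a replicate block (adjusted p = 0.0587). Mpo and Csf3r, which define the lineage, did not pass (adjusted p = 0.0778 and 0.32). In knockout-labelled libraries 1 to 3 they had 5.19, 0.406 and 0.16 and 10.2, 4.09 and 0.894 CPM. Lcn2, a siderophore-binding protein that other cells make too, rose from 0.949, 0.647 and 1.94 to 17.7, 8.32 and 13.8 CPM (adjusted p = 0.000908). The leukocyte gene Ptprc, which encodes the CD45 that the sort removed, stood at 7.72, 7.86 and 13.6 CPM and 10.4, 9.8 and 2.55 CPM (adjusted p = 0.642). Of 28 hepatocyte markers 4 fell and 1 rose (14.3% and 3.57%, against 9.87% and 9.54% over all genes). Alb stood at 584, 1055 and 1986 CPM in controls, highest in control 3, against 534, 493 and 688 CPM (adjusted p = 0.212). Of 13 lymphocyte markers 1 fell (7.69%), and of 9 erythroid markers 1 fell and 1 rose (11.1% each). By edgeR 0 of 12 cholangiocyte markers passed, with 1 at an unadjusted p under 0.05 and 1 by DESeq2.

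**Figure D4:**
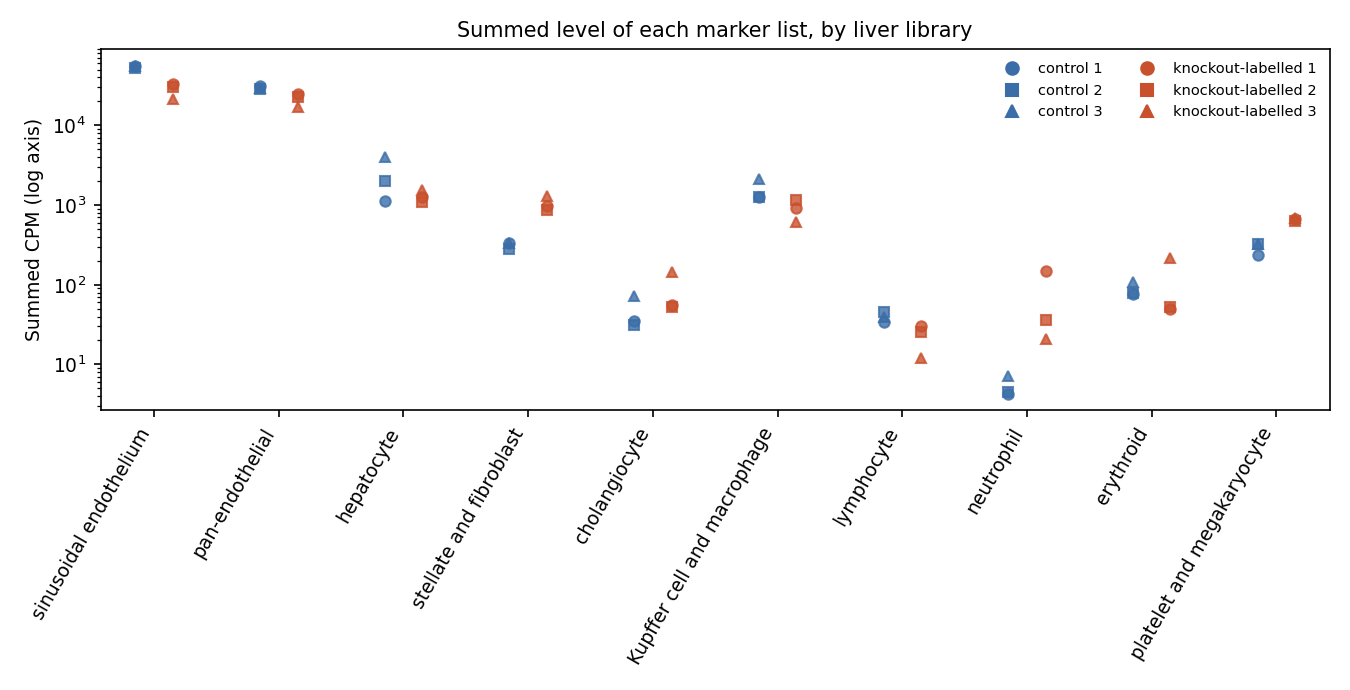
Summed CPM on a log axis of each marker list in the 6 liver libraries, controls in blue and knockout-labelled libraries in red-brown. Sinusoidal markers sum to 53271 to 56283 CPM in controls and 21698 to 33103 CPM in knockout-labelled libraries, while the neutrophil sum is highest in knockout-labelled library 1.

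The sinusoidal markers themselves, 24 tested, had 13 falls and 0 rises by edgeR, against 9.87% lower over all genes, and 8 falls without control 1 or control 3. Beside that 0 stood 0 at an unadjusted p under 0.05 and 0 by DESeq2. Lyve1, a hyaluronan receptor, had 769, 688 and 1024 CPM in controls and 307, 42.8 and 256 CPM in knockout-labelled libraries (adjusted p = 0.0438), and Fcgr2b, the inhibitory Fc receptor that clears immune complexes, 4949, 5197 and 5451 and 2397, 2398 and 1565 CPM without passing (adjusted p = 0.0721). Both were lower in every knockout-labelled library, whereas Stab2 overlapped between groups. Maf, a transcription factor of sinusoidal identity, fell from 1940, 1844 and 1779 to 1118, 1225 and 702 CPM (adjusted p = 0.0444). Lyve1 and Maf were named after their values were seen, and leaving out 1 library ended both calls in most cases, with adjusted p up to 0.118 for Lyve1 and 0.136 for Maf. Other members of this list were steadier. The falls of Stab1, Flt4, Wnt2 and Bmp2, given above, kept their calls under every alternative, while that of Rspo3 did not.

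The liver change was then set against the same contrast in lung (3 against 3) and heart (2 against 2) by testing the difference of the log2 changes. Library 2 of each lung group was male as in liver, whereas in heart knockout-labelled library 2 was male and both controls were female, so that label and sex are partly mixed there. The second heart control is titled replicate 2 but carries the number 3 in its description. The labels do not say whether libraries of different organs come from the same animals. The test of the difference took all libraries as separate. The difference from lung passed in 1219 genes, or 6.20%, with 605 more positive and 614 more negative in liver, and that from heart in 1635, or 8.32%, with 727 and 908. With a term for libraries with or without Xist, chosen after seeing the data, these counts were 1296 and 1568. By the background count, 8.46% of genes passed in lung and 19.3% in heart. The genes named here were drawn from those that passed in liver with separate groups and at least 10 CPM in the higher liver group. Predicted genes were left out, and genes that changed only in lung or heart could not enter. Among those drawn, Mest had the smallest adjusted p in both comparisons, shared with Ppp1r14c in that with lung. Its liver change was larger by log2 5.12 than lung and 5.33 than heart (adjusted p = 9.65e-08 and 1.45e-07). Bmp1 differed by 6.33 and 6.55 (adjusted p = 4.87e-07 and 2.01e-06), and there the control means were 104 CPM in lung and 177 CPM in heart, so that knockout-labelled liver, at 488 ± 72.8 CPM, stood above the control level of either organ. Chpf rose in all 3 organs, by log2 2.26 in lung and 2.26 in heart, and by 5.01 more in liver than in either (adjusted p = 2.11e-06 and 9.48e-06). Mmp11 differed by 4.59 and 4.35 (adjusted p = 1.11e-06 and 9.48e-06). Ints6l, a subunit relative of the Integrator complex, rose in liver from 107, 106 and 92.8 to 685, 621 and 656 CPM and fell in heart from a mean of 245 to 110.2 CPM (difference 3.84, adjusted p = 9.31e-07). Itga2 had control means of 123 CPM in lung and 5.63 CPM in heart, and its liver change was larger than that in lung by 5.31 (adjusted p = 3.14e-07).

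Ly6a, a surface antigen of many endothelial cells, fell in liver from 159.6, 149 and 139 to 29.2, 33.9 and 43.8 CPM and had means of 1287 and 1885 CPM in lung (difference −2.62, adjusted p = 7.07e-05). Il16 fell in liver and rose in lung from 0.759 to 1.88 CPM (difference −2.73, adjusted p = 7.11e-05). Fbxo32, a ubiquitin ligase subunit of muscle wasting, fell from 37.9 ± 7.76 to 24.4 ± 2.93 CPM in liver and rose from 13.6 to 83.6 CPM in lung (difference −3.26, adjusted p = 3.01e-05). Its fall in liver alone was not firm, since it did not pass without control 2, control 3, knockout-labelled 1 or knockout-labelled 2 (adjusted p up to 0.16). Against heart, the collagen gene Col27a1 fell in liver from 58.9, 50.8 and 41.5 to 9.41, 5.86 and 5.9 CPM and rose in heart from 13.4 to 40.5 CPM (difference −4.43, adjusted p = 4.42e-05). Fads3, of the fatty acid desaturase family, did the same, from 39.5 ± 3.05 to 16.6 ± 1.86 CPM in liver and from 39.5 to 159.9 CPM in heart (difference −3.27, adjusted p = 3.42e-05). Mmp14, a membrane-bound collagenase, rose in both, from 499 ± 37.8 to 818 ± 25.8 CPM in liver and from 30.2 to 278 CPM in heart, so that its negative difference of −2.49 is a smaller rise (adjusted p = 4.42e-05).

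**Figure D5:**
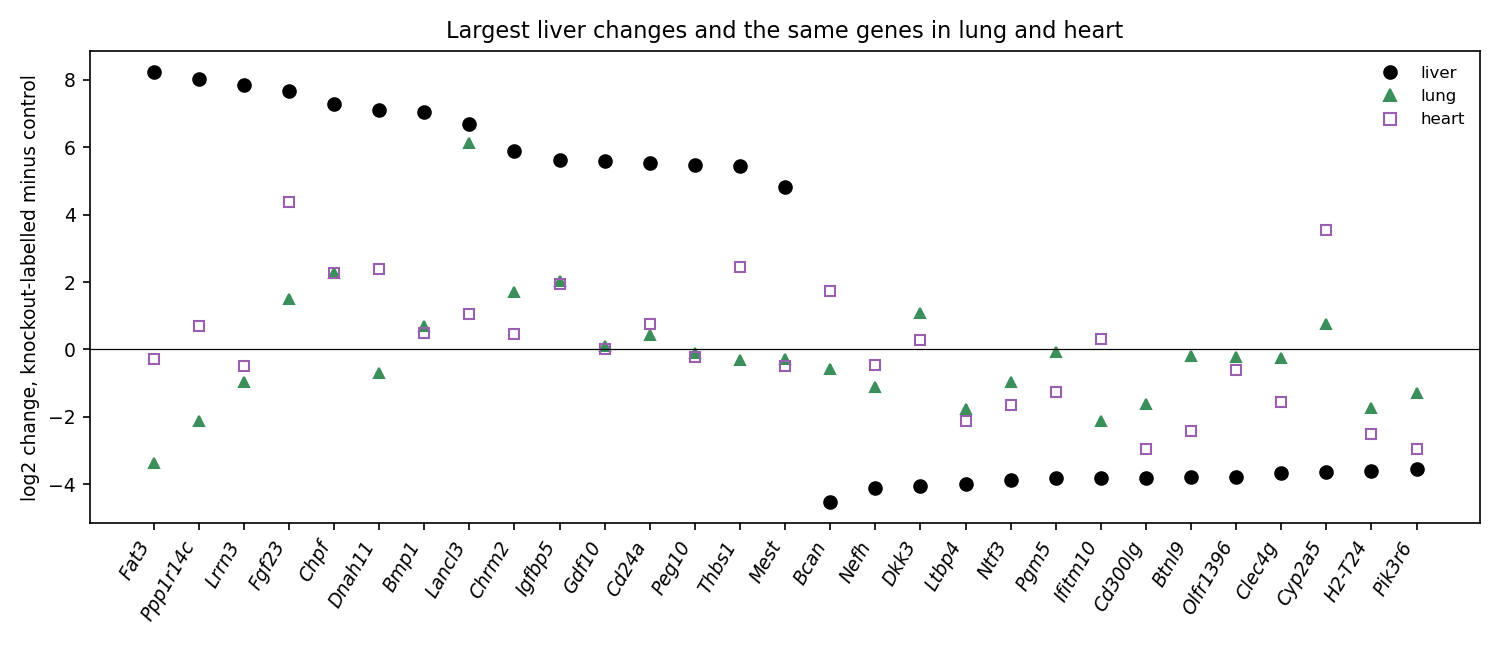
Log2 change between knockout-labelled and control libraries of the 14 largest rises and Mest (left) and the 14 largest falls (right) among liver genes with separate groups and at least 10 CPM, leaving out predicted genes, markers of other cells and 14 genes of an earlier account, shown in liver (black), lung (green) and heart (open purple squares). Mest stands at 4.83 in liver and −0.29 and −0.50 in lung and heart, while Lancl3 stands at 6.68 in liver and 6.13 in lung. Heart groups hold 2 libraries each.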

How the data were processed

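Total RNA of sorted cells was turned into TruSeq poly(A) libraries (v2 or Stranded), per the labels' protocols, and the submitters' processing notes name FastQC 0.11.5, STAR 2.7.6a and GRCm38. The counting program and its strand setting are stated by none of these sources. The values deposited by the authors are whole read counts per gene for 52636 genes, of which 99.6% carry a symbol. Another 3047 genes that GENCODE lists, with 2943 lying on chromosomes 14 to 19, were not analysed here.

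Genes were kept by filterByExpr (minimum count 10, minimum total 15), which left 19646. All 16 libraries entered one edgeR 4.0.16 quasi-likelihood fit in R 4.3.3, with tissue and label as 1 factor and TMM scaling (factors 0.916 to 1.04 in liver), and Benjamini-Hochberg adjustment over all genes. Liver libraries held 30226340 to 41449054 counts. Levels are CPM, not adjusted for gene length, so they compare libraries and not genes. No liver library pair within a group was closer than sampling noise allows. In simulated liver counts for 19646 genes with 200 changed, the test found 54% of 2-fold and 87% of 4-fold changes. Of its calls 7.84% were false, against an adjusted p threshold of 0.05. Far fewer genes changed in this simulation than the 3814 that passed in liver, and every group started from the liver control level. These shares therefore do not carry over to the liver comparison.

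The members and gene lists were chosen with earlier results of these data known, and the imprinted list after its values were seen. Named genes were Erg and Fli1 and the 14 largest rises and falls by log2 change with separate groups and at least 10 CPM. Predicted genes, other-cell markers and 14 genes of an earlier account were left out there. Also named were the 12 largest in CPM and, per list, up to 4 of smallest adjusted p with defining members that did not pass. For differences between tissues 6 each way were named, among genes that passed in liver with separate groups and at least 10 CPM, predicted genes left out. Other names are said to be chosen later. The alternatives were DESeq2 1.42.0, RLE scaling, no filter, liver alone, a replicate block, leaving out each library and, added later, a term for libraries above or below 100 CPM of Xist. Promoters are RefSeq's, matched for 13029 of the genes tested. Some genes of the lists are not reported here by name.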

Additional observations from a re-analysis of the deposited data

Results flagged for a closer look

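These genes were drawn from those that passed in liver with separate groups and at least 10 CPM in the higher liver group, predicted genes left out. Among those, the liver change differed from that in another organ by edgeR's test of the difference, and the 6 smallest adjusted p each way were taken. Genes that changed only in lung or heart could not enter. They are given as values only (log2, liver minus the other organ). More positive in liver than in lung were Ppp1r14c (10.14), Bmp1 (6.33), Itga2 (5.31), Mest (5.12), Chpf (5.01) and Mmp11 (4.59). More negative than in lung were Fbxo32 (−3.26), Il16 (−2.73), Ly6a (−2.62), Fam189a2 (−2.60), Cpne2 (−2.10) and Itprid2 (−1.56). More positive in liver than in heart were Ppp1r14c (7.31), Bmp1 (6.55), Mest (5.33), Chpf (5.01), Mmp11 (4.35) and Ints6l (3.84). More negative than in heart were Syt12 (−8.06), Col27a1 (−4.43), Eva1c (−3.67), Fads3 (−3.27), Olfm1 (−2.73) and Mmp14 (−2.49).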

How the results depend on the processing

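Of 278 calls of named liver genes, 240 kept direction and threshold under all 12 alternatives, 38 lost the call in at least 1 and 0 reversed. The counts of liver genes that rose and fell were 2160 and 2393 by DESeq2, 1812 and 2023 with RLE scaling, 1608 and 1898 without the filter and 1680 and 1667 with liver fitted alone. Leaving out 1 library gave 1309 to 1869 and 1313 to 1703. A term for libraries with or without Xist, added after seeing the data, gave 1868 and 1963 in liver and ended 4 named calls. Replicate numbers were not taken as pairs (correlations of same-numbered deviations −0.051, 0.24 and 0.101), although number 2 was male in both groups. With a replicate block on liver alone the counts were 1515 and 1620 and 17 named calls ended, with those of Aqp1, Ptprb, Col4a1 and Rps6 among them (adjusted p = 0.0649, 0.0524, 0.0505 and 0.0559). By DESeq2 the difference from lung passed in 2044 genes (962 more positive, 1082 more negative) and that from heart in 2661 (1127 and 1534). The count more negative than in lung ran from 401 (without control 3) to 626 when 1 library was left out. The cause of these shifts was not tested. With 3 libraries a group, 2-fold changes may be missed, and genes with few control counts have loosely fixed ratios.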
